A study of Mus musculus with 4 samples.

Results

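The genes described here are 9 regulators of epithelial gene expression and splicing, measured in clonal lines of a mouse mammary tumor. They are the epithelial splicing regulators Esrp1 and Esrp2, the Grainyhead-like transcription factors Grhl1, Grhl2 and Grhl3, the zinc finger repressors Ovol1 and Ovol2, and the epithelial Ets factors Elf3 and Ehf. They were chosen by name, with earlier results of these data known, as were the gene lists below. Each of the 9 genes was matched by 1 probe set of the array, so that 9 of the 19938 genes with a probe set of their own are covered. The 4 cell lines E1, E2, M1 and M2 were cloned from the spontaneous mammary tumor of 1 female FVB Tg MMTV/neu mouse (FVB/N in the study's methods), in which the MMTV promoter drives the neu (ErbB2) transgene in mammary tissue. All 4 lines carry the transgene, and each line is a single clone with 1 array. E1 and E2 are epithelial lines grown out of CD24-high, neu-high cells in RPMI with 20% serum. M1 and M2 are mesenchymal-like lines grown out of CD24-low, neu-low cells in MEGM, a medium made for mammary epithelium, to which 2% serum, pituitary extract, epidermal growth factor, insulin and hydrocortisone were added. Cell type, sort gate and medium therefore cannot be told apart here. The age of the mouse is not given in the sources used here.

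Epithelial cells keep their junctions, polarity and exon choice through a small set of transcription factors and RNA-binding proteins. Grhl factors bind enhancers and promoters of junction genes such as E-cadherin, Ovol factors repress mesenchymal genes including Zeb1, and the Esrp proteins bind pre-mRNA and direct the inclusion or skipping of exons that differ between epithelial and mesenchymal cells. Zeb1 and the related factors of epithelial to mesenchymal transition (EMT) in turn repress members of these families. In the mammary gland, Elf3, Ehf and Elf5 belong to the Ets family members with epithelial expression.

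Values are log2 expression levels, where a step of 1 is a 2-fold difference, and the median of all values in the file was 6.78. Differences between types were tested with limma over the 23410 probe sets with a gene symbol, as the mean of E1 and E2 minus the mean of M1 and M2, and adjusted p-values cover all of these probe sets. The labels name no repeat culture of any line. Each p-value therefore sets the difference between types against the spread between the clones of a type, which may be technical. limma draws that spread towards a value taken from all probe sets. No background level is given for these arrays, and a fold is taken between listed values, which need not be the fold between transcripts when the lower value is dim. When E1 or E2 was left out, limma called 0 of all probe sets (2579 and 2651 had an unadjusted p under 0.05), so each call below rests on having both epithelial lines. The labels matched the defining markers of the types in part. Of 8 epithelial markers, 5 were higher in E1 and E2, with mean log2 levels of 11.26 and 11.28 in E1 and E2 and 8.07 and 8.19 in M1 and M2. Cdh1 and Epcam were among them, while Krt8 and Krt18, the keratins of simple epithelia, were at 13.12 or above in every line. Of 8 mesenchymal markers, 3 were higher in M1 and M2, with means of 9.43, 9.07, 10.95 and 10.93 in the order E1, E2, M1 and M2. These were Cdh2, Zeb1 and Twist1, and the last 2 are also in the list of EMT factors below. Vim was at 12.79, 13.10, 13.72 and 13.82 in that order and did not pass (limma adjusted p = 0.0896). Fn1, at 12.74 or above in every line, Sparc, Col1a1 and Col3a1 did not pass either. Of 5 leukocyte, 4 endothelial, 4 myoepithelial and 3 adipocyte markers measured, limma called 0 in either direction. Its unadjusted p was under 0.05 for 1 endothelial (Cdh5) and 1 adipocyte marker (Fabp4). The linear model without moderation called 0 of all probe sets, so its 0 calls here and in the lists below say nothing about these genes. The defining leukocyte and endothelial markers Ptprc and Pecam1 were at 5.90 or below in all lines. Lyz2 and Cdh5 had levels in both mesenchymal-like lines above those in both epithelial lines but did not pass the test. Lyz2, the lysozyme of myeloid cells, was at 8.91 in M1 and 6.57 in M2, compared with 5.08 and 5.65 in the epithelial lines (adjusted p = 0.283). Cdh5, the cadherin of endothelial junctions, was at 7.58 in M1 and 6.72 in M2, compared with 5.99 and 6.15 (adjusted p = 0.216). Of the 3 adipocyte markers, Fabp4, a fatty acid carrier, was at 7.20 in M1 and 10.77 in M2, compared with 5.26 and 5.50 (adjusted p = 0.273), while the defining markers Adipoq, at 5.14 or below, and Plin1, between 6.73 and 6.77, were not higher in M1 or M2 than in both epithelial lines. The 4 myoepithelial markers had means of 6.70, 6.87, 6.71 and 6.67 in the order E1, E2, M1 and M2. The part of such genes in the results was not tested.

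All 9 regulators had higher levels in both epithelial lines than in either mesenchymal-like line. Over all probe sets tested, both epithelial lines lay above both mesenchymal-like lines in 23.8%. The regulators differed by 0.93 to 6.06 on the log2 scale, with a median of 1.59, against a median of -0.0018 over all probe sets. By limma, 3 of the 9 were higher in the epithelial lines at an adjusted p under 0.05 (Esrp1, Grhl2 and Grhl1), where 2.02% of all probe sets were called in that direction, and 0 were lower. The other 6 did not pass, 3 of them with an adjusted p between 0.05 and 0.06, and all 9 had an unadjusted p under 0.05, as did 18.0% of all probe sets. At least an 8-fold difference was found for 4 of the regulators, Esrp1, Grhl2, Ehf and Esrp2, and at least a 2-fold difference for 8, with 4.48% of all probe sets at least 2-fold higher in the epithelial lines.

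**Figure D1:**
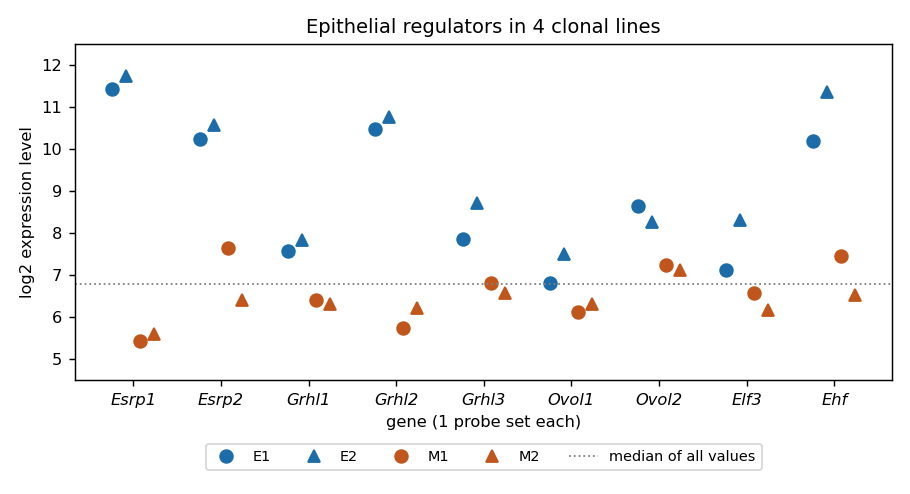
Log2 expression level of each of the 9 regulators in E1, E2, M1 and M2, with 1 point for each array and a dotted line at the median of all values in the file. For each gene both epithelial lines lie above both mesenchymal-like lines, and the gap between the types is widest for Esrp1 and Grhl2; heights are not comparable between genes, since each has its own probe set.

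Esrp1, which directs the epithelial exon program, was at 11.42 in E1 and 11.74 in E2, against 5.43 in M1 and 5.60 in M2 (probe set 10511560). The epithelial lines were close together and far above the mesenchymal-like lines, which were both below the median of all values. The difference between types was 6.06 on the log2 scale (standard error 0.16, limma adjusted p = 0.00254), or 66.8-fold with a 95% interval of 48.6 to 91.8. It ranked 12 by size among differences towards the epithelial lines in the 23410 probe sets. Esrp2, its close relative with overlapping exon targets, was at 10.24 in E1 and 10.58 in E2, against 7.63 in M1 and 6.40 in M2 (probe set 10581455). M1 stood 2.36-fold above M2, and both remained well below the epithelial lines. The log2 difference of Esrp2 was 3.40 (standard error 0.47, limma adjusted p = 0.0511), or 10.5-fold with a 95% interval of 4.27 to 26.0, and did not pass. The call of Esrp1, like every other call here, rested on having both epithelial lines. The log2 difference of Esrp1 was 6.22 without E1, 5.90 without E2, 5.97 without M1 and 6.15 without M2. That of Esrp2 ranged from 2.78 to 4.02 over all alternative settings of the fit, and Esrp2 passed in 5 of these 14 settings.

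Grhl2, the Grainyhead-like factor most closely tied to epithelial junctions, was at 10.47 in E1 and 10.76 in E2, against 5.73 in M1 and 6.22 in M2 (probe set 10423770). The types did not overlap, and M2 was 0.49 above M1. The difference between types was 4.64 on the log2 scale (standard error 0.23, limma adjusted p = 0.00509), or 24.8-fold with a 95% interval of 16.0 to 38.5. Grhl1, which regulates desmosomal and hair follicle genes, was at 7.57 in E1 and 7.83 in E2, against 6.42 in M1 and 6.30 in M2 (probe set 10394954). Its difference was smaller but even within each type, at 1.34 on the log2 scale (standard error 0.15, limma adjusted p = 0.0299), or 2.54-fold with a 95% interval of 1.91 to 3.36. Grhl3, known for epidermal barrier formation and neural tube closure, was at 7.86 in E1 and 8.71 in E2, against 6.81 in M1 and 6.58 in M2 (probe set 10517401). The epithelial lines were 0.85 apart, and the log2 difference between types of 1.59 did not pass (standard error 0.33, limma adjusted p = 0.113, 95% interval 0.67 to 2.51). Without E1 and without E2 the adjusted p was 0.0746 and 0.0803 for Grhl2 and 0.145 and 0.187 for Grhl1. Grhl1 also lost its call when probe sets without a gene symbol were tested as well (adjusted p = 0.0509), and both lost it when values below the median were raised to the median (adjusted p = 0.0535 for Grhl2 and 0.213 for Grhl1).

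Ovol2, a repressor of mesenchymal genes that also acts in early development, was at 8.64 in E1 and 8.26 in E2, against 7.25 in M1 and 7.11 in M2 (probe set 10488256). It was the only regulator of the 9 with a higher level in E1 than in E2. The types differed by 1.27 on the log2 scale (standard error 0.17, limma adjusted p = 0.0505), which did not pass. This was 2.42-fold, with a 95% interval of 1.73 to 3.38. Ovol2 passed in 3 of 14 alternative settings of the fit. Its limma adjusted p was 0.0435 with quantile normalization and 0.226 when values below the median were raised to the median. Ovol1, its relative with a role in epidermal differentiation, was at 6.80 in E1 and 7.50 in E2, against 6.12 in M1 and 6.32 in M2 (probe set 10465106). The level in E1 lay 0.49 above M2, the narrowest gap between the types among the 9 regulators. Its log2 difference of 0.93 did not pass (standard error 0.28, limma adjusted p = 0.207, 95% interval 0.16 to 1.71).

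Ehf, an Ets factor of glandular and surface epithelia, was at 10.20 in E1 and 11.36 in E2, against 7.46 in M1 and 6.53 in M2 (probe set 10485445). E2 exceeded E1 by 2.23-fold and M1 exceeded M2 by 1.90-fold, and the types did not overlap. The difference between types was 3.79 on the log2 scale (standard error 0.54, limma adjusted p = 0.0545) and did not pass. This was 13.8-fold, with a 95% interval of 4.90 to 39.0. Ehf passed in 3 of 14 alternative settings of the fit. Its limma adjusted p was 0.0406 with an intensity trend in the prior variance and 0.262 with values below the median raised to it. Elf3, a related Ets factor induced in inflamed epithelia, was at 7.11 in E1 and 8.30 in E2, against 6.56 in M1 and 6.18 in M2 (probe set 10358027). E2 was 2.28-fold above E1, nearly as far apart as the types. The log2 difference of Elf3 was 1.34 (standard error 0.46, limma adjusted p = 0.258, 95% interval 0.06 to 2.61). Grhl1 had almost the same difference as Elf3, and its lines of one type were at most 0.27 apart against 1.19 for Elf3.

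**Figure D2:**
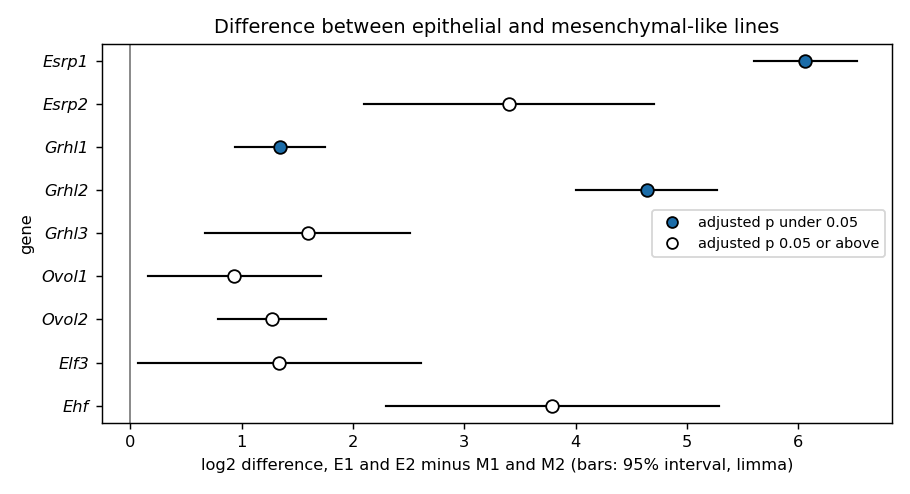
Log2 difference of the mean of E1 and E2 minus the mean of M1 and M2 for each regulator, with 95% intervals from limma that are not adjusted for the number of probe sets. All 9 intervals lie above 0, the filled points mark the 3 with an adjusted p under 0.05, and the widest intervals are those of Ehf, Esrp2 and Elf3.

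Between the lines of one type no test is possible, since each line has 1 array. E2 was above E1 for 8 of the 9 regulators, where 52.8% of all probe sets had a higher level in E2. The median of E2 minus E1 was 0.34 for the regulators and 0.02 for all probe sets. Elf3 and Ehf were at least 2-fold apart between E1 and E2, a distance reached by 2.24% of all probe sets. M1 was above M2 for 6 of the 9, against 49.1% of all probe sets, and Esrp2 alone was at least 2-fold apart between them, as were 5.86% of all probe sets. In 5 of the 9, both mesenchymal-like lines lay below the median of all values, and in the other 4 (Esrp2, Grhl3, Ovol2 and Ehf) M1 or both lines lay above it. For Esrp1 the difference between the types was 19.0 times the larger gap within a type, and for Elf3 it was 1.12 times that gap.

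**Figure D3:**
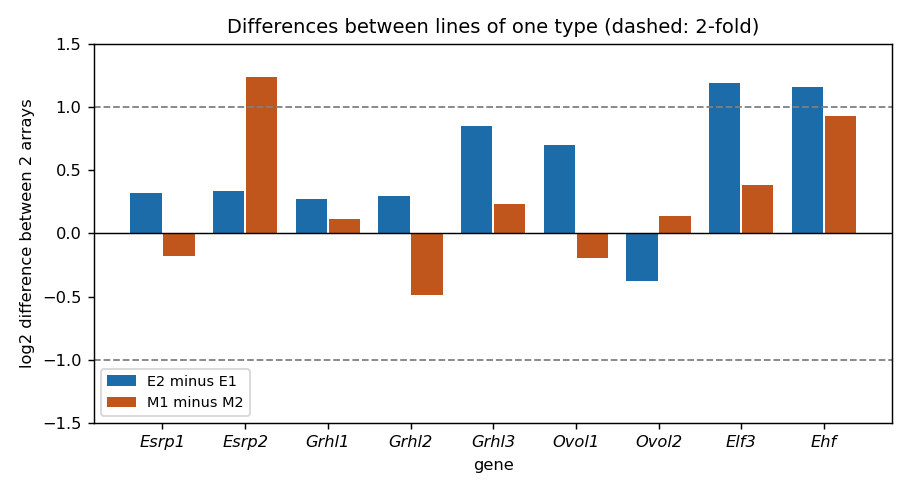
Bars give the log2 difference of E2 minus E1 and of M1 minus M2 for each regulator, 1 array against another, with dashed lines at a 2-fold difference. Elf3 and Ehf pass the 2-fold line between the epithelial lines, Esrp2 passes it between the mesenchymal-like lines, and Ovol2 is the one gene with E1 above E2.

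The closest relatives of these factors and further gene lists were set beside them. For each list, the shares over all probe sets are 2.02% called higher and 1.72% called lower in the epithelial lines. Of 4 CP2 and Ovol relatives, limma called 0, with 1 at an unadjusted p under 0.05. The linear model without moderation called 0 of them, as of all probe sets. Tfcp2, a widely expressed member of the wider Grainyhead superfamily, was at 8.80 in E1 and 8.81 in E2, against 9.10 in M1 and 9.14 in M2 (adjusted p = 0.235). Ubp1, another CP2 factor, lay between 10.00 and 10.16 in all lines. Tfcp2l1, a CP2 factor of kidney and salivary ducts, had levels of 6.50 and 7.76 in the epithelial lines and 7.50 and 6.54 in M1 and M2, so that the types overlapped.

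Among 26 probe sets of 23 other Ets factors, 1 was higher in the epithelial lines, 0 were lower and the median log2 difference was 0.06. The one called was Elf5, a regulator of alveolar differentiation in the mammary gland, at 11.06 in E1 and 11.71 in E2, against 5.79 in M1 and 5.56 in M2. The log2 difference of 5.71 (standard error 0.27, limma adjusted p = 0.00456) was larger than those of Elf3 and Ehf, though this was not tested, and its call was lost when values below the median were raised to the median (adjusted p = 0.105). Spdef, an Ets factor of secretory luminal cells, had levels of 7.36 and 7.53 in E1 and E2 and of 7.61 and 7.70 in M1 and M2 (adjusted p = 0.505). Ets1, the founding member of the family, was at 8.92, 8.95, 8.21 and 8.33 in the order E1, E2, M1 and M2 (adjusted p = 0.0751).

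Other regulators of alternative splicing did not show a difference of the size of Esrp1. Among 40 probe sets of 30 such genes, limma called 0 in either direction, and the median log2 difference was 0.17. Both epithelial lines lay above both mesenchymal-like lines in 20 of the 40, and in 23.8% of all probe sets. In 3 of the 40, both mesenchymal-like lines lay above both epithelial lines. An unadjusted p under 0.05 was found for 8 of the 40, and for 18.0% of all probe sets. The linear model without moderation called 0 of these, as of all probe sets. Rbfox2, which promotes mesenchymal exon choice, was at 10.27 and 10.44 in E1 and E2 and at 10.77 and 10.59 in M1 and M2 (adjusted p = 0.344). Mbnl1, a splicing factor of differentiated cells, lay between 11.98 and 12.26 in all lines (adjusted p = 0.692). Rbm47, an RNA-binding protein of epithelia, had a level of 6.67 in M1, compared with 9.71, 9.92 and 9.37 in E1, E2 and M2, so that M1 stood apart from the other 3 lines (adjusted p = 0.470).

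Of 13 genes with exons known to be regulated by Esrp proteins, 1 was higher in the epithelial lines and 0 were lower, with a median log2 difference of 0.20. These are levels of whole genes and carry no measure of exon use. The one called was Fgfr2, a fibroblast growth factor receptor with epithelial and mesenchymal isoforms, at 7.99 in E1 and 8.03 in E2, against 6.53 in M1 and 6.44 in M2 (log2 difference 1.52, standard error 0.11, limma adjusted p = 0.0117). The adhesion receptor Cd44 was at 11.50 in E1, 11.53 in E2, 11.52 in M2 and 10.67 in M1 (adjusted p = 0.621). Ctnnd1, the catenin p120 that stabilizes cadherins, was at 12.26 and 12.36 in E1 and E2 and at 11.56 and 11.69 in M1 and M2 (adjusted p = 0.0790).

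Of 15 measured genes reported as targets of Grhl factors, 9 were higher in the epithelial lines and 0 were lower, with a median log2 difference of 3.19. Over all probe sets, 2.02% were called higher. Epcam and Cdh1 are also among the epithelial markers above, and the study itself used E-cadherin as its epithelial marker. The list is therefore not independent of how the types were described. The adhesion protein Epcam was at 12.70 in E1 and 12.76 in E2, against 5.77 in M1 and 5.46 in M2 (log2 difference 7.12, limma adjusted p = 0.00252). The protease inhibitor Spint1, the small GTPase Rab25 of apical trafficking and E-cadherin (Cdh1) had log2 differences of 6.13, 5.92 and 5.63, and the lines of each type were at most 0.32 apart. Cldn4, a tight junction protein, differed between the epithelial lines, at 8.72 in E1 and 11.28 in E2, with 6.83 in M1 and 7.22 in M2, and did not pass (limma adjusted p = 0.225). Of 7 measured genes reported as targets of epithelial Ets factors, 1 was higher in the epithelial lines, Spint1, which is also in the Grhl list, and 0 were lower, with a median of -0.01. Krt8, named here after its values were seen, lay between 13.27 and 13.69 in all lines (adjusted p = 0.807).

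EMT transcription factors were higher in the mesenchymal-like lines for 5 of 10 probe sets and lower for 1, with a median log2 difference of -2.51, and 1.72% of all probe sets were called in the first of these directions. Prrx1, a homeobox factor of mesenchyme, was at 5.73, 5.82, 10.24 and 11.64 in the order E1, E2, M1 and M2. Zeb1, a repressor of E-cadherin, was at 7.49, 6.96, 10.99 and 10.64 in that order, with a log2 difference of -3.59 (limma adjusted p = 0.0113). Zeb2 and Twist1 had log2 differences of -2.60 and -3.36 and also passed. Snai2 was at 6.03 and 5.57 in E1 and E2 and at 11.12 and 9.39 in M1 and M2 but did not pass (limma adjusted p = 0.0574), and Snai1 lay between 7.81 and 8.21 in all lines. The one factor lower in the mesenchymal-like lines was Snai3, chosen after its values were seen, at 7.73 and 7.37 in E1 and E2 and at 6.26 and 6.29 in M1 and M2 (limma adjusted p = 0.0448, and 0.0590 without M1 and 0.0554 without M2). With values below the median raised to it, the calls of Prrx1, Zeb1, Zeb2 and Twist1 were lost, with adjusted p = 0.241 for Prrx1 and 0.133 for Zeb1. All of these calls were lost without E1 and without E2, with adjusted p = 0.0746 and 0.0897 for Zeb1, and the same M1 and M2 arrays held the lower levels of all 9 epithelial regulators.

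Of 21 other transcription factors of epithelial tissues, 4 were higher in the epithelial lines and 1 was lower, with a median log2 difference of 0.10. Tfap2c, an AP-2 factor of luminal cells, was at 11.76 in E1 and 11.69 in E2, against 6.37 in M1 and 5.87 in M2. Sox10, a factor of neural crest and mammary progenitor cells, was at 12.19, 12.38, 7.18 and 7.30 in the same order. The homeobox factor Barx2 and the LIM protein Lmo4, a known Grhl3 partner that was named after its values were seen, had smaller log2 differences of 1.10 and 0.99. The call of Lmo4 was lost without M1 (adjusted p = 0.0537) and without M2 (adjusted p = 0.0591), and both were lost with the raised floor (adjusted p = 0.140 for Barx2 and 0.154 for Lmo4). Klf4, a zinc finger factor of differentiated epithelium, had the opposite direction, at 6.74 and 6.53 in E1 and E2 and at 10.13 and 10.05 in M1 and M2 (log2 difference -3.46, limma adjusted p = 0.00313).

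**Figure D4:**
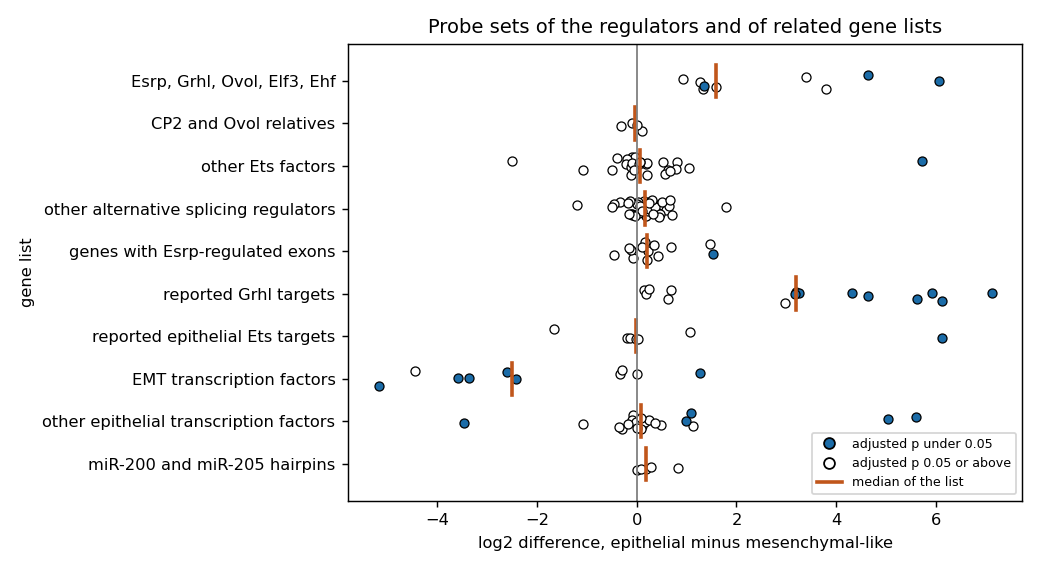
Log2 difference between the types for every probe set of the 9 regulators and of related gene lists, with filled points at an adjusted p under 0.05 and a vertical bar at the median of each list. Reported Grhl targets lie to the right with a median of 3.19, EMT transcription factors to the left with a median of -2.51, and splicing regulators other than Esrp1 and Esrp2 have a median of 0.17.

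For the 8 regulators at least 2-fold apart between the types, which leaves out Ovol1, the genes with the most similar pattern were taken as the nearest by root mean square difference over the 4 lines, with each gene centred on its own mean. This describes 4 arrays and carries no test. Igfbp5, which binds insulin-like growth factors outside the cell, was nearest to Esrp1, at a distance of 0.08, and Rab25 came next at 0.10. Large2, a glycosyltransferase, was nearest to Grhl2 at 0.10, with the tight junction protein Cldn3 also at 0.10. Tmem102 was nearest to both Esrp2 and Ehf, at distances of 0.11 and 0.29, with M1 above M2 at 6.66 and 5.63. The homeobox gene Hoxa5 was nearest to Grhl1 at 0.05, the kinase Map3k21 to Grhl3 at 0.06, the phosphatase Pdxp to Ovol2 at 0.03 and the transcription factor Mycn to Elf3 at 0.12.

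Zeb and Snail factors bind the E-box CACCTG, which reads CAGGTG on the other strand, and promoter sequences are shown to let this motif be read in the regulators. RefSeq sequences on GRCm38.p6 were matched by symbol for Grhl1, Grhl3, Ovol2 and Elf3, 4 of the 9 genes, and not for Esrp1, Esrp2, Grhl2, Ovol1 and Ehf. Each sequence holds the 250 bases before a transcript start, 5′ to 3′ on the gene's strand, and capitals mark the E-box. The windows are chr12:24572037-24572286 on the plus strand for Grhl1, and on the minus strand chr4:135573633-135573882 for Grhl3, chr2:144331363-144331612 for Ovol2 and chr1:135258473-135258722 for Elf3.
Grhl1: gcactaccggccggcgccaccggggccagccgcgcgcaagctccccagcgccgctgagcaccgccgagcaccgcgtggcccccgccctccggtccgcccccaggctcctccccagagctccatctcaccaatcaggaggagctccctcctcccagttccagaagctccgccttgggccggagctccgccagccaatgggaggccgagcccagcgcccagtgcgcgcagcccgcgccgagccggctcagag
Grhl3: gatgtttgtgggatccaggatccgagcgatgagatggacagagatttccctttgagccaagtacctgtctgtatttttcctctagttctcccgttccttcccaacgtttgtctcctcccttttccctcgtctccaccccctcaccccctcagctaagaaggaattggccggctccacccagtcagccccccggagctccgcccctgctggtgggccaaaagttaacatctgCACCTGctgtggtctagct
Ovol2: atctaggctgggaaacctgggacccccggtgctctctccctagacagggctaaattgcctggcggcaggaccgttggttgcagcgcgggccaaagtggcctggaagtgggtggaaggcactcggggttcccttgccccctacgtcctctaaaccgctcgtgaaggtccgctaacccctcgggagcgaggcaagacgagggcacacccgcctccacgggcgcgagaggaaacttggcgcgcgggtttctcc
Elf3: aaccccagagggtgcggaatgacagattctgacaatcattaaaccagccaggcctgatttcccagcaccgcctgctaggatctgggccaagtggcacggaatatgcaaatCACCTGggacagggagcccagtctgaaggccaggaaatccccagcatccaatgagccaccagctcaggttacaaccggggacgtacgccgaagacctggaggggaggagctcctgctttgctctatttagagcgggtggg
Grhl3 held 1 E-box, beginning 19 bases before the start site, and Elf3 held 1, beginning 140 bases before it. Ovol2 and Grhl1 held none in these windows, nor did the window of a further Grhl1 start. Of all 32851 windows of this length, 17.2% held the E-box on either strand. Elf3 also held AACCGG, the core of the Grainyhead site, on 1 strand, as did 5.62% of all windows on either strand. The Ovol motif CCGTTA and the Ets motif CCGGAA were in none of the 4 windows shown and in 2.18% and 12.0% of all windows. A match of letters is a description and shows no binding.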

How the data were processed

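RNA from each cell line was hybridized by the authors to 1 Affymetrix MoGene 1.0 ST array. The methods describe export as CEL files and a column kit for RNA, the labels name Trizol, and the submitters' processing notes name Partek. Background correction, normalization and summarization are not given in the sources used here. The values deposited by the authors are log2 expression levels, from 2.28 to 14.54, used without further scaling. Arrays give no read depth, and their number limits the precision.

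Probe sets were named through the platform annotation. Of 35556, 21789 had 1 symbol, 1621 several and 12146 none, and no gene was named from a probe set with several. Of 148 probe sets of the gene lists with an identifier in RefSeq, 0 had another symbol there. Some list genes have no named probe set here and are not reported.

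For the comparison of types, limma 3.58.1 was run in R 4.3.3 (lmFit and eBayes, 2 residual degrees of freedom) on the 23410 probe sets with a symbol, with Benjamini-Hochberg adjustment over all of them and a threshold of 0.05. Lists were described by counts and medians. Genes named are the 9 regulators, the 4 largest called differences of each list, up to 3 further members for their role, and the nearest genes by pattern. The 9 genes and the lists were chosen with earlier results of these data known. Alternatives were quantile normalization, median centring, a filter and a floor at the median of all values, other sets of probe sets tested, other variance models, leaving out each line, and the number in the line name as a block. The fit was also run on simulated data drawn from limma's own variance model, which cannot show how it behaves on these arrays.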

Additional observations from a re-analysis of the deposited data

How the results depend on the processing

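All 9 regulators kept a higher mean in the epithelial lines under every alternative in which they were tested (14 for each, and 13 for Ovol1, whose mean is below the filter). The count of regulators called was 3 as reported. Among probe sets with a mean above the median of all values it was 6 of 8 regulators tested, beside 469 of 13845 probe sets called higher. That mean covers all 4 lines. Esrp1, Grhl1, Grhl2 and Elf3 had both mesenchymal-like lines below the median and passed the filter through E1 and E2 alone. The filter thus leans on the levels being compared, and no conclusion is drawn from its count. The count was 5 when only probe sets with 1 gene symbol were tested (489 of 21789) and 5 with an intensity trend in the prior variance (492 of 23410). When values below the median were raised to it, the count was 1 (145 of 23410). The linear model without moderation called 0 regulators and 0 of all probe sets. There 6 regulators had an unadjusted p under 0.05, as did 2916 of all 23410 probe sets. Leaving out 1 line gave 0 to 5 called regulators, with 0 when E1 or E2 was left out (unadjusted p under 0.05 in 9 and 7), 5 when M1 was and 4 when M2 was. The 874 calls over all probe sets became 223 with the raised floor and 0 without moderation, and ranged from 0 to 1879 when a line was left out. The 22 calls in the other lists became 9 with the raised floor and 0 without moderation, where 37 had an unadjusted p under 0.05, and fell to 0 without E1 and without E2, against 27 without M1 and 26 without M2. With 3 lines, 1 residual degree of freedom is left and the lone line is assumed to vary like the other type. The cause of these shifts was not tested. The numbers in the line names are names of clones, and deviations of same-numbered lines had a correlation of -0.04 across probe sets, which are not independent. With this number as a replicate block, 319 probe sets, 2 regulators (Esrp1 and Grhl2, each with adjusted p = 0.0342) and 13 list probe sets were called.

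Esrp1 ranged from 4.80 with the raised floor to 6.22 without E1, and Grhl2 from 3.83 with the raised floor to 4.88 without M2. Of the 16 pairs of a regulator and a gene of like pattern, 13 were found again with quantile normalization and 1 on uncentred levels. Uncentred levels also carry the height of each probe set, which is not comparable between genes. Differences near 0 changed sign in genes that were not called. Ubp1 was at -0.020 with quantile normalization, and when a line was left out Ubp1 ranged from -0.061 to 0.095, Tfcp2l1 from -0.52 to 0.74, Krt8 from -0.30 to 0.031 and Cd44 from -0.0056 to 0.84.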

Other observations

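Hairpins of the miR-200 family and miR-205, small RNAs of epithelial cells of which the miR-200 family represses Zeb1 and Zeb2, were represented by 5 named probe sets. limma called 0 of them in either direction, with 1 at an unadjusted p under 0.05. The linear model without moderation called 0 of them, as of all probe sets. Their levels lay between 4.57 and 6.82 in all lines, with a median log2 difference of 0.19, and 4 of the 5 were below the median of all values in every line. Mir200b was the one with an unadjusted p under 0.05 and was named after its values were seen, at 5.83 in E1 and 5.58 in E2, against 5.07 in M1 and 4.67 in M2 (limma adjusted p = 0.138). A probe set of a hairpin on this array measures precursor sequence and gives no level of the mature miRNA.

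Elf4, an Ets factor of lymphoid and other tissues, had 2 probe sets that disagreed and was named after its values were seen. One was at 5.82 in E1 and 5.89 in E2, against 7.76 in M1 and 8.92 in M2 (limma adjusted p = 0.0790), and the other lay between 6.84 and 7.01 in all lines (limma adjusted p = 0.848). Etv1 and Etv5, also named after their values were seen, had 2 probe sets each that ran in the same direction. Both probe sets of Etv1 were lowest in M1, at 10.01 and 10.52, and highest in M2, at 12.04 and 12.34, with E1 and E2 between them.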
